A study of Mus musculus with 20 samples.

Results

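The genes described here are 9 members of the prostaglandin pathway, Pla2g4a, Pla2g2d, Ptgs1, Ptgs2, Ptges, Ptgis, Ptger4, Ptgfr and Hpgd, of 24394 gene symbols shared by the 3 deposited tables. They were listed by symbol with earlier results of these data known, from their counts per 1000000 counts of the library (CPM) in each library and their difference between tumour-bearing and control mice at each day. Those values are therefore given as a description, with no test, and genes are called higher or lower by a test only among 79 other genes of the pathway and the marker lists. All 9 members passed the filter on low counts at each day.

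The RNA came from freshly sorted fibroadipogenic progenitors (FAPs), stromal cells that lie between the fibres of skeletal muscle and can become fibroblasts or adipocytes. Every mouse was a male of strain C57BL/6J, the muscle was that of the hindlimb, and the age of the mice is not given in the sources used here. KPC mice had 2000000 KPCY cells, a cultured mouse pancreatic tumour line, placed into the pancreas in 50 µL, and control mice had sham surgery. Sorted cells were negative for CD31, CD45, α7-integrin and propidium iodide and positive for SCA-1 and the DNA dye Hoechst. Day 14 has 3 control and 4 KPC libraries, day 21 has 3 of each kind, and day 26 has 4 control and 3 KPC libraries, labelled as biological replicates, and each day has its own controls. Totals ran from 12944751 to 26434933 counts per library. The progenitor markers Pdgfra and Ly6a, which encodes SCA-1, were present in every group, at 1197 to 1668 and 525.7 to 1460 CPM. KPC replicate 3 of day 26 stood apart from KPC replicates 1 and 2 of that day, and day 26 is given with and without it. Leaving it out keeps only KPC replicates 1 and 2 and moved the difference of every member at day 26 away from 0. The 8 FAP markers, all detected in each group, summed to 28332 to 35318 CPM except in KPC replicates 1 and 2 of day 26 (17712 and 25713 CPM). At day 21 their sums were 28332, 30522 and 31418 CPM in KPC, below the 33562 to 34128 CPM of controls. Of the 8, 1 was called higher and 3 lower then, against 12.5% of all genes. The 5 adipocyte markers reached 452 CPM in KPC replicate 1 of day 26 against at most 2.50 CPM in controls. At day 21 they summed to 6.13 to 6.91 CPM in KPC and at most 1.04 CPM in controls. Glial markers (5) summed to 58.0 to 130 CPM in KPC and 20.4 to 40.9 CPM in controls at day 14. At day 21 KPC replicate 1 held 150 CPM of them and 398 CPM of 6 myofibre markers (controls at most 51.2 and 39.3 CPM). The part of these in the member values was not tested. The leading number of the library codes, whose meaning is not given, separates KPC from control libraries at days 14 and 21, so anything behind that number and the tumour cannot be told apart there. Some single libraries also differ in that number from the rest of their group. They are KPC replicate 4 of day 14, KPC replicate 2 of day 21, and KPC replicate 3 and control replicate 4 of day 26. Whether that number bears on their values was not tested. In bulk RNA, fewer cells of a type and less RNA per cell cannot be told apart.

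Prostaglandins are short-lived lipid signals. A phospholipase A2 frees arachidonic acid from membranes, a cyclooxygenase converts it to prostaglandin H2, and a terminal synthase then makes prostaglandin E2, prostacyclin or another product. These act on G protein-coupled receptors of nearby cells and are cleared by oxidation, and in muscle they are known as signals of injury, regeneration and inflammation.

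Transcripts of Ptgs2, the inducible cyclooxygenase, of the receptor gene Ptger4 and of the secreted phospholipase gene Pla2g2d were all higher in KPC than in control libraries at day 21, while those of Ptgs1, the constitutive cyclooxygenase, were lower. Of the 9 members, 8 have an entry among RefSeq promoters (GRCm38.p6, the same assembly as mm10), and Ptgis has none. The 250 bases before the annotated start of these 4 genes are shown because the 3 genes that were higher together can be set beside the isozyme that was lower. Pla2g4a, which was also below every control at day 21, is not shown. Capitals mark matches, on either strand, to motifs searched from 250 bases before to 50 after the start. These were a C/EBP palindrome, an E-box, a cyclic AMP response element (CRE) half-site, a GC box, a TATA box and the kappaB consensus, and their letters are given with their shares.
Ptgs2, chr1:150099781-150100030, plus strand: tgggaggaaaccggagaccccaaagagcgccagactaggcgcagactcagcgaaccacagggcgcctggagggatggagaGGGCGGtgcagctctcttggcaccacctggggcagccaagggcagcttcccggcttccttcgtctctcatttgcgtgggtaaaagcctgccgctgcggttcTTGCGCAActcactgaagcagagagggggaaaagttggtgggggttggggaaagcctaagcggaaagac
Ptger4, chr15:5244188-5244437, minus strand: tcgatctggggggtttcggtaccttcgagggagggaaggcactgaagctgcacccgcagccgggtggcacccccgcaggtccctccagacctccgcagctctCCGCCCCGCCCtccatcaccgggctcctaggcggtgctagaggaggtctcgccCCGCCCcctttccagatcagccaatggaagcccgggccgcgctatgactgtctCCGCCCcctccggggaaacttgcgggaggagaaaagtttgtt
Pla2g2d, chr4:138775485-138775734, plus strand: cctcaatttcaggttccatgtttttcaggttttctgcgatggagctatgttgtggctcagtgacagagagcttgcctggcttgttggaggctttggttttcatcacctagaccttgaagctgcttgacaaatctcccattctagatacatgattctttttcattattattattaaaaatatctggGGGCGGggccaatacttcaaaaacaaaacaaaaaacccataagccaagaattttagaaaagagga
Ptgs1, chr2:36230176-36230425, plus strand: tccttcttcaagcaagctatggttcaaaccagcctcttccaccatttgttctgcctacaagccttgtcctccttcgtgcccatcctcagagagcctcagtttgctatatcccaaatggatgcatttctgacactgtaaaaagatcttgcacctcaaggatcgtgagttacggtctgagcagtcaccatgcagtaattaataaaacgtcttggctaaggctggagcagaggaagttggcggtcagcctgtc
The Ptgs2 stretch held a match to the C/EBP palindrome TTGCGCAA beginning 69 bases before the start, a motif found in 0.183% of the 32851 promoters of that table. Just after the Ptgs2 start, at chr1:150100038-150100058, a CRE half-site and an E-box overlap by 2 bases, and this site reads ccactaCGTCACGTGgagtcc. The CRE half-site, CGTCA, was found in 20.8% of all promoters. The E-box, searched as CACGTG, was found in 7.15% of them. Among the other 7 members with an entry, none had a match to any of these 3 motifs. GC boxes, spelled GGGCGG and found in 35.7% of all promoters, numbered 4 for Ptger4, 2 each for Ptges and Ptgfr, 1 each for Ptgs2, Pla2g2d and Hpgd, and 0 for Ptgs1. The TATA box, searched as TATAAA and found in 13.6% of promoters, was matched for Hpgd just after the start and for 1 of the 2 starts listed for Pla2g4a. Such matches describe letters only, and a motif without a match is only missing from this window. No member matched the kappaB consensus in this window, which 4.51% of promoters do. The Ptger4 and Ptgs2 stretches were rich in G and C (66.8% and 61.6%, with 19 and 13 CpG dinucleotides) and that of Pla2g2d was poor (39.6%, 2 CpG), against medians of 52.4% and 6 over all promoters.

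**Figure D1:**
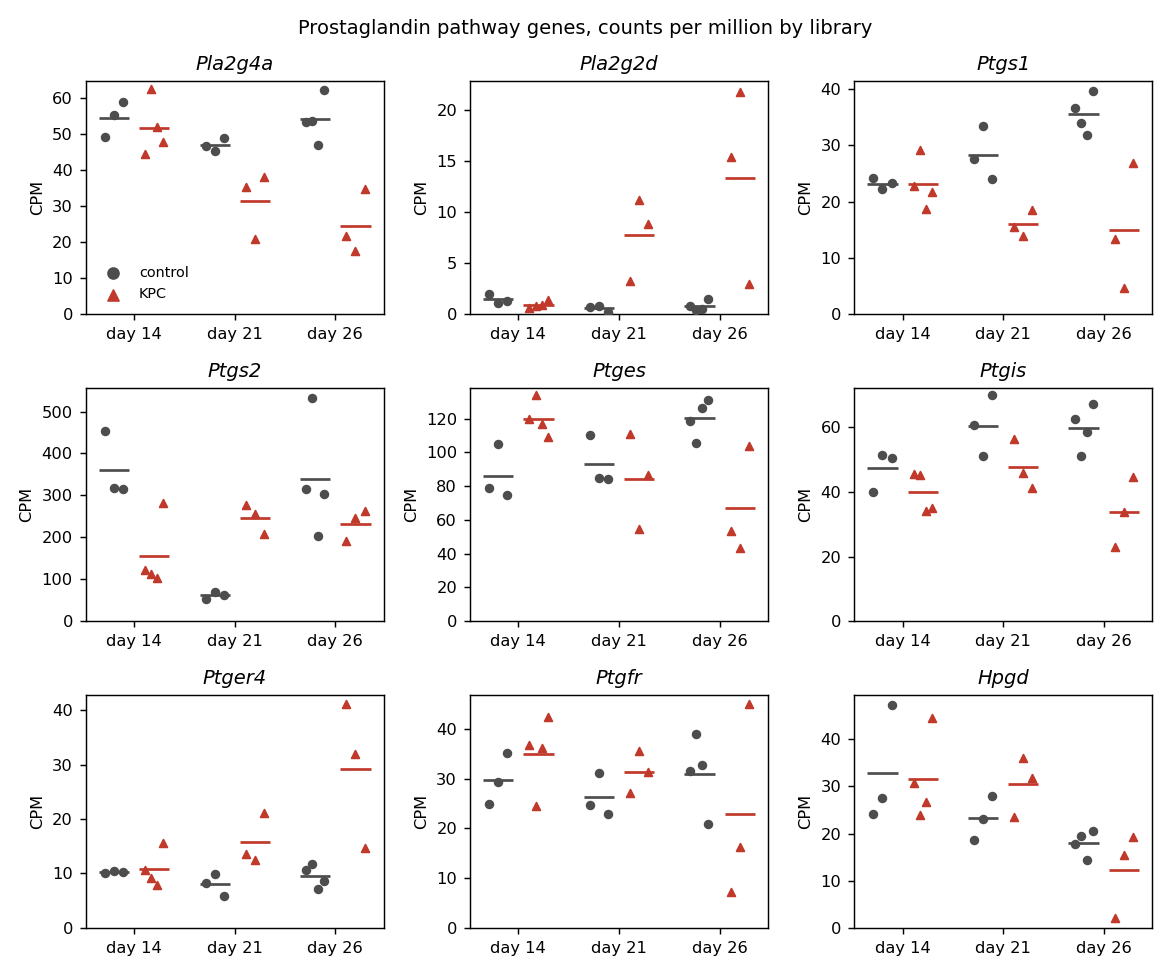
CPM of the 9 members in each of the 20 libraries, by day, with controls as grey circles, KPC as red triangles and group means as bars. Pla2g2d and Ptger4 were higher in every KPC library of days 21 and 26 than in any control, and Ptgs2 was lowest in the 3 controls of day 21.

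The phospholipases come first in the pathway. Pla2g4a (chromosome 1, 149829618 to 149961290, minus strand, mm10) encodes cytosolic phospholipase A2, the enzyme that releases arachidonic acid on calcium signals. At day 14 its libraries lay at 49.2, 55.1 and 58.9 CPM in controls and 44.5, 62.4, 51.9 and 47.6 CPM in KPC, and the groups overlapped (log2 fold change of KPC over control -0.06 ± 0.13, SE). At day 21 the controls lay at 46.6, 45.3 and 48.9 CPM and KPC at 35.2, 20.9 and 38.0 CPM, so that all 3 KPC libraries were below all controls (log2 -0.59 ± 0.19). Day 26 showed the same order, with controls at 53.3, 53.5, 47.0 and 62.2 CPM and KPC at 21.7, 17.4 and 34.6 CPM (log2 -1.13 ± 0.24, and -1.48 ± 0.16 without KPC replicate 3).

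Pla2g2d (chromosome 4, 138775735 to 138782046, plus strand) encodes a secreted phospholipase A2 best known from dendritic cells and macrophages of lymphoid tissue. It was close to silent in controls, with 1.94, 1.14 and 1.30 CPM on day 14, then 0.670, 0.850 and 0.201 CPM on day 21, and 0.849, 0.446, 0.548 and 1.49 CPM at day 26. KPC libraries of day 14 did not stand out, at 0.587, 0.840, 0.898 and 1.43 CPM (log2 -0.62 ± 0.50). At day 21 they held 3.26, 11.2 and 8.86 CPM, from 421 counts in all against 40 in the controls, a log2 fold change of 3.75 ± 0.58 or 13.5-fold. At day 26 the KPC values were 15.4, 21.8 and 2.93 CPM (log2 3.99 ± 0.69, 15.9-fold, and 4.45 ± 0.41 without KPC replicate 3). The 6 KPC libraries of these 2 days were above all 10 controls of the series, yet spread widely, and over the 20 libraries the gene ranged 109-fold, the widest span of the 9 members.

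Leukocyte markers were also higher in some of these libraries. The summed level of 13 macrophage and monocyte markers was 15.9 to 31.2 CPM in the controls of the 3 days, 25.3 to 105 CPM in KPC at day 21 and 27.5 to 489 CPM in KPC at day 26, with every one of the 13 detected in each group. The 7 dendritic markers summed to 10.4 to 27.9 CPM in controls, 14.9 to 99.3 CPM in KPC at day 21 and 14.1 to 86.5 CPM in KPC at day 26, with Flt3 at 0 in both KPC groups. At day 14, where Pla2g2d did not stand out, macrophage sums were 24.2 to 54.8 CPM in KPC and 17.2 to 23.7 CPM in controls. Dendritic sums of that day were 23.3 to 58.0 CPM in KPC and 11.7 to 19.7 CPM in controls. At day 21, KPC replicates 1 to 3 had 3.26, 11.2 and 8.86 CPM of Pla2g2d beside macrophage sums of 105, 44.6 and 25.3 CPM and dendritic sums of 99.3, 36.6 and 14.9 CPM. At day 26 they had 15.4, 21.8 and 2.93 CPM beside macrophage sums of 489, 46.8 and 27.5 CPM and dendritic sums of 86.5, 14.1 and 15.7 CPM. The library with the most Pla2g2d was replicate 2 at both days and the one with the highest sums was replicate 1, while the lowest Pla2g2d level of day 26 and the lowest macrophage sum of that day were both in replicate 3. Ptprc, the gene of CD45, reached at most 1.00 CPM in controls and 5.75 CPM in KPC. The part of leukocytes in the Pla2g2d values was not tested.

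The 2 cyclooxygenases followed different courses. Ptgs2 (COX-2; chromosome 1, 150100031 to 150108227, plus strand) is an immediate-early type gene with an unstable messenger RNA, and Ptgs1 (COX-1; chromosome 2, 36230426 to 36252272, plus strand) is the steadily expressed isozyme. At day 14 Ptgs2 lay at 452, 318 and 315 CPM in controls and at 123, 112, 103 and 283 CPM in KPC. KPC was the lower group there (log2 -1.21 ± 0.40), with KPC replicate 4 close to the controls, and the value without that library was -1.66. At day 21 the order was the opposite, with 52.4, 70.2 and 62.8 CPM in controls and 276, 255 and 208 CPM in KPC, a log2 fold change of 1.99 ± 0.14 or 3.97-fold. At day 26 controls lay at 316, 533, 203 and 303 CPM and KPC at 191, 245 and 262 CPM, and the groups overlapped (log2 -0.54 ± 0.31, and -0.66 ± 0.35 without KPC replicate 3). The controls of day 21 were thus the lowest libraries of the series for Ptgs2, and the KPC libraries of day 21 did not exceed any control of day 14.

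Ptgs1 was even across the 7 libraries of day 14, at 24.1, 22.2 and 23.3 CPM in controls and 22.8, 29.3, 18.6 and 21.7 CPM in KPC (log2 0.01 ± 0.16). At day 21 it lay at 27.6, 33.4 and 24.0 CPM in controls and 15.4, 14.0 and 18.6 CPM in KPC, with no overlap (log2 -0.83 ± 0.17, 1.78-fold lower in KPC). At day 26 controls held 36.6, 34.1, 31.9 and 39.7 CPM and the 3 KPC libraries held 13.4, 4.59 and 26.9 CPM (log2 -1.23 ± 0.49). Without KPC replicate 3 the difference at day 26 was larger, at -1.98 ± 0.40 or 3.96-fold lower.

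Within a library, the ratio of the 2 isozymes does not depend on scaling between libraries. Per kilobase of exon, Ptgs2 exceeded Ptgs1 15.9, 12.1 and 11.5-fold in the controls of day 14 and 4.59, 3.26, 4.68 and 11.1-fold in KPC. At day 21 the controls had ratios of 1.61, 1.78 and 2.21, and KPC had 15.2, 15.5 and 9.51. At day 26 the ratios were 7.31, 13.3, 5.40 and 6.47 in controls and 12.1, 45.2 and 8.25 in KPC. Of the 3 KPC ratios of day 21, 2 lay within the range of day 14 controls, and it was the day 21 controls that had the lowest ratios of all.

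**Figure D2:**
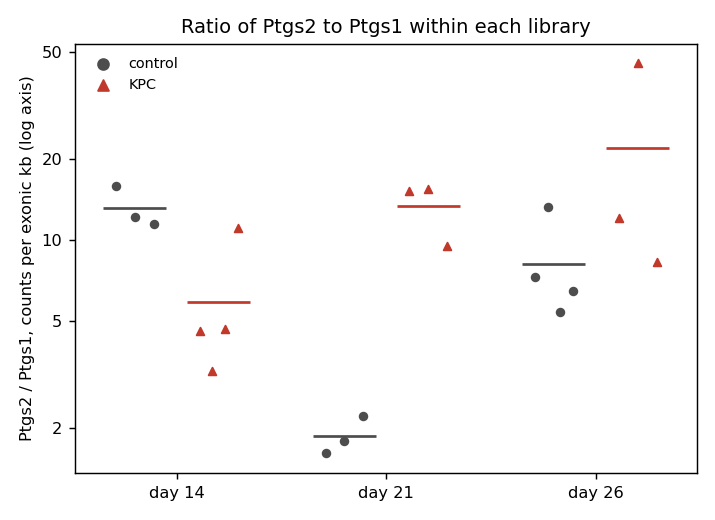
Ratio of Ptgs2 to Ptgs1 in counts per kilobase of exon in each library (log axis), with controls as grey circles, KPC as red triangles and arithmetic means as bars. Controls of day 21 sit between 1.61 and 2.21, below the other libraries, and KPC replicate 2 of day 26 is highest at 45.2.

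The terminal synthases differed from the cyclooxygenases. Ptges (chromosome 2, 30889471 to 30929863, minus strand) encodes microsomal prostaglandin E synthase, the inducible enzyme that usually acts with COX-2. At day 14 it lay at 78.7, 105 and 75.0 CPM in controls and 120, 134, 117 and 109 CPM in KPC, above all controls (log2 0.49 ± 0.13). At day 21 the groups overlapped, at 111, 84.7 and 84.2 CPM in controls and 111, 54.8 and 86.9 CPM in KPC (log2 -0.15 ± 0.24). At day 26 KPC was below all controls, at 53.6, 43.3 and 104 CPM against 119, 105, 126 and 131 CPM, where KPC replicate 3 came within 2 CPM of the lowest control (log2 -0.84 ± 0.29, and -1.33 ± 0.15 without it). Ptges therefore stood on opposite sides of its controls at days 14 and 26, and at day 14 it was higher in KPC where Ptgs2 was lower.

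Ptgis (chromosome 2, 167191805 to 167240604, minus strand) encodes prostacyclin synthase. It lay at 40.1, 51.3 and 50.4 CPM in controls and 45.4, 45.1, 34.1 and 35.0 CPM in KPC at day 14, and at 60.8, 51.0 and 69.9 CPM against 56.2, 45.9 and 41.2 CPM at day 21. The groups overlapped at both days (log2 -0.23 ± 0.14 and -0.35 ± 0.15). At day 26 they did not, with controls at 62.5, 51.1, 58.5 and 67.3 CPM and KPC at 23.0, 33.9 and 44.6 CPM (log2 -0.82 ± 0.22, and -1.10 ± 0.17 without KPC replicate 3). The log2 fold change of Ptgis was below 0 at each of the 3 days.

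Endothelial cells, which the CD31 gate should remove, also express Ptgs1 and Ptgis. The 12 endothelial markers, all detected in each group, summed to 389 to 593 CPM in controls, 563 to 750 CPM in KPC at day 14, 526.4 to 1031 CPM at day 21 and 338 to 1141 CPM at day 26. By edgeR, 2 of the 12 rose and 0 fell at day 14, 8 rose and 1 fell at day 21, and 0 passed at day 26, at median log2 fold changes of 1.65, 1.90 and 2.46. The shares of all genes called were 1.12%, 12.5% and 0%, so at day 26 no gene of any list passed. The day 26 sums of KPC replicates 2 and 3 (338 and 432 CPM) were not above controls (389 to 562 CPM), so the sums did not follow the median marker. Pecam1, the gene of CD31, lay at 8.08 to 24.7 CPM in controls and 45.9 to 75.4 CPM in KPC at day 14. It lay at 15.2 to 19.97 against 38.5 to 144 CPM at day 21, and at 4.50 to 16.0 against 12.6 to 241 CPM at day 26, where the groups overlapped. At days 21 and 26 the highest sums were in KPC replicate 1, where Ptgs1 was at 15.4 and 13.4 CPM and Ptgis at 56.2 and 23.0 CPM. The 5 platelet markers, another source of Ptgs1, summed to 11.7 to 25.5 CPM over all 20 libraries. The part of these cells in the values of Ptgs1 and Ptgis was not tested.

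Among the receptors, Ptger4 (chromosome 15, 5206661 to 5244187, minus strand) encodes EP4, a prostaglandin E2 receptor that raises cyclic AMP. Controls held 10.1, 10.4 and 10.2 CPM on day 14, then 8.23, 9.87 and 5.82 CPM at day 21, and 10.7, 11.7, 7.13 and 8.52 CPM at day 26. KPC libraries of day 14 were spread around their controls, at 10.6, 9.14, 7.93 and 15.6 CPM (log2 0.10 ± 0.22). At day 21 KPC lay at 13.5, 12.5 and 21.0 CPM, 1.96-fold over the controls (log2 0.97 ± 0.26), and at day 26 at 41.1, 31.9 and 14.7 CPM, 3.08-fold over them (log2 1.62 ± 0.34, and 1.93 ± 0.22 without KPC replicate 3). The 6 KPC libraries of days 21 and 26 were above all 10 controls, the highest of which held 11.7 CPM. Exons of Ptger4 overlap those of Ttc33 on the other strand, and the use of strand in counting is not given. Ttc33 lay at 15.2 to 25.1 CPM in all libraries, with log2 fold changes of 0.15 ± 0.16 at day 21 and 0.34 ± 0.16 at day 26.

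Ptgfr (chromosome 3, 151796502 to 151837630, minus strand) encodes the prostaglandin F2α receptor. It overlapped between the groups at each day, at 24.9 to 35.2 CPM in controls and 24.4 to 42.4 CPM in KPC at day 14, and at 22.8 to 31.1 against 27.1 to 35.6 CPM at day 21. At day 26 controls held 31.5, 38.9, 32.8 and 20.8 CPM, while KPC values were 7.14, 16.4 and 45.0 CPM. The last is the highest Ptgfr value of the series and the first the lowest. The log2 fold change of day 26 was -0.43 ± 0.54 with KPC replicate 3 and -1.43 ± 0.36 without it. Without KPC replicate 1, the lowest library, it was -0.01.

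Hpgd (chromosome 8, 56294585 to 56321043, plus strand) encodes 15-hydroxyprostaglandin dehydrogenase, which starts the breakdown of prostaglandin E2 and F2α. It overlapped between the groups at each day. Levels were 24.1, 27.4 and 47.2 CPM in controls and 30.7, 23.8, 26.7 and 44.6 CPM in KPC at day 14 (log2 -0.05 ± 0.27), and 18.6, 23.2 and 28.0 against 23.5, 36.0 and 31.7 CPM at day 21 (log2 0.38 ± 0.19). At day 26 controls lay at 17.8, 19.4, 14.3 and 20.5 CPM, and the KPC libraries at 2.01, 15.5 and 19.3 CPM (log2 -0.56 ± 0.59). KPC replicate 1 alone was far below the rest, and without it the log2 fold change was -0.05.

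**Figure D3:**
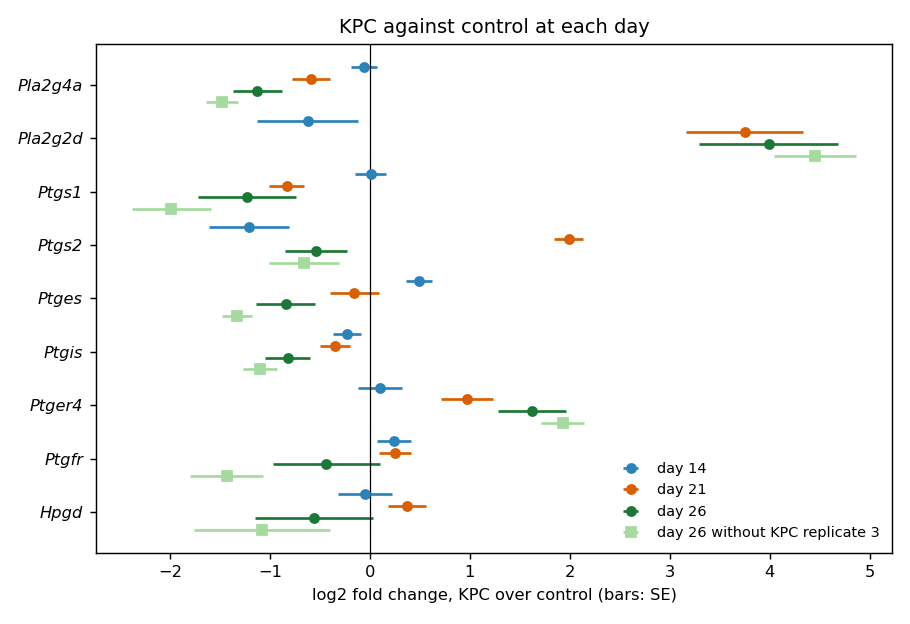
Log2 fold change of KPC over control for each member at days 14, 21 and 26 (circles) and at day 26 without KPC replicate 3 (squares), with standard errors as bars. Pla2g2d and Ptger4 lie to the right at days 21 and 26, and Ptgs2 changes side from -1.21 at day 14 to 1.99 at day 21.

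Counted over the members, groups did not overlap for 2 of 9 at day 14 (Ptges higher, Ptgs2 lower), 5 at day 21 (Ptgs2, Ptger4 and Pla2g2d higher, Ptgs1 and Pla2g4a lower) and 6 at day 26 (Ptger4 and Pla2g2d higher, Ptgs1, Ptges, Ptgis and Pla2g4a lower). Over all genes tested the shares without overlap were 13.3% at day 14 (7.03% higher, 6.27% lower), 33.2% at day 21 (16.5% and 16.7%) and 29% at day 26 (13.7% and 15.3%). The members were picked on these contrasts, so nothing is read from their counts. Setting the KPC libraries of days 21 and 26 against all 10 controls, Pla2g2d and Ptger4 were above every control and Pla2g4a, at 17.4 to 38.0 CPM against 45.3 to 62.2 CPM, was below every control. Of 14141 genes, 2.14% were above and 1.97% below in that way.

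Levels can be compared between genes only per length. In CPM per kilobase of exon, Ptgs2 led in day 14 controls at 79.0 ± 17.2 (SD, n = 3), followed by Ptges at 21.9 ± 4.15, Hpgd at 19.5 ± 7.41 and Ptgis at 18.4 ± 2.42, which did not differ beyond their spread. In day 21 controls Ptges (23.7 ± 3.85) and Ptgis (23.6 ± 3.68) led, and Ptgs2 at 13.5 ± 1.95 was level with Hpgd at 13.8 ± 2.79. Ptgs2 led again in KPC at day 21, at 53.9 ± 7.58, and at day 26 both in controls, at 73.9 ± 30.3, and in KPC, at 50.8 ± 8.09. In KPC at day 14 Ptgs2 ranked first at 33.9 ± 18.7, a spread that covered Ptges at 30.5 ± 2.63. Pla2g2d had the lowest level per kilobase in the controls of every day (0.256 ± 0.149 at day 21) and ranked 5 of 9 in KPC at day 26, at 5.96 ± 4.28, where its spread covered Hpgd above it and Ptger4, Ptgs1, Pla2g4a and Ptgfr below it.

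The genes with the most similar course were found by the root mean square difference of log2 CPM, each gene centred on its own mean, over the 20 libraries and among 13289 genes. Nearest to Ptgs2 were Has1, a hyaluronan synthase gene (0.38), and Tnfaip6, which encodes a secreted hyaluronan-binding protein (0.43), with Dnajb4 at 0.60, where the median candidate lay at 0.99. Their lowest and highest levels were 39.8 and 286 CPM for Has1 and 36.8 and 254 CPM for Tnfaip6. Nearest to Pla2g2d were Serpina3n, a serine protease inhibitor gene (0.60), Pdk4, a brake on glucose oxidation (0.60), and Apod, a lipocalin gene (0.65), against a median of 1.72. For Ptger4 the nearest were Gja1 (0.28), Apobec3 (0.28) and Myd88 (0.28), and for Pla2g4a they were Calu (0.18), Golim4 (0.19) and Anxa4 (0.19). Ptgs1 was nearest to Anxa2 (0.21), Naa38 (0.23) and Lgals1 (0.23), Ptgfr to Vit (0.25), Abca8a (0.26) and Dleu2 (0.28), and Hpgd to Ecm2 (0.35), Mmp27 (0.40) and Sirt5 (0.41). Ptges and Ptgis varied too little for this (SD of log2 CPM 0.46 and 0.39). Libraries of a group share their day and condition, depth differs between libraries, and these root mean square differences carry no test.

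**Figure D4:**
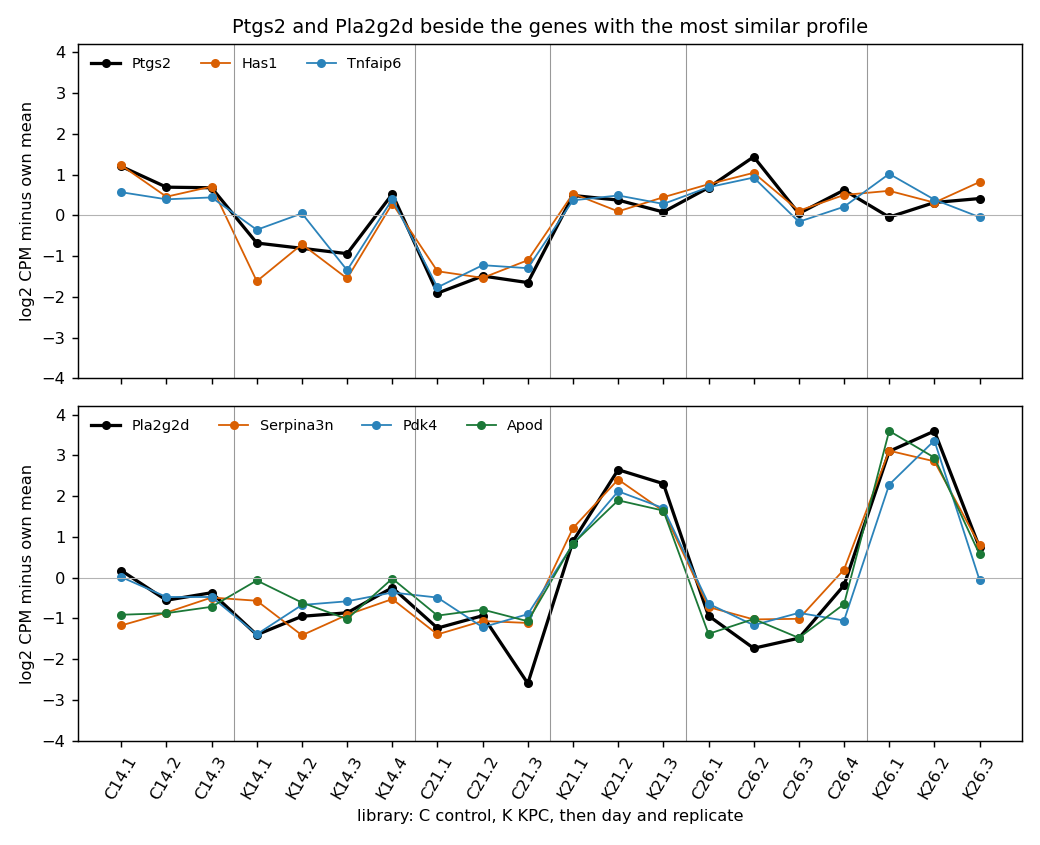
Log2 CPM minus each gene's own mean in the 20 libraries, for Ptgs2 with Has1 and Tnfaip6 (top) and Pla2g2d with Serpina3n, Pdk4 and Apod (bottom). Vertical lines separate the 6 groups, and the Pla2g2d set is high in KPC of day 21 and in KPC replicates 1 and 2 of day 26.

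The remaining genes of the pathway were also listed with earlier results of these data known, so their calls are no independent check. They were tested at each day with edgeR's quasi-likelihood test and Benjamini-Hochberg adjustment over all genes. At day 21, 8 of 54 tested genes rose and 6 fell, which is 25.9% of them against 12.5% of all genes (6.38% higher, 6.11% lower), at a median log2 fold change of -0.02 against 0.01. The 14 calls became 7, 7 and 8 without control replicates 1 to 3, 9 without KPC replicate 2, and 5 in a fit of all 20 libraries. At day 14, 0 of 55 passed and 7 had an unadjusted p under 0.05, where edgeR called 1.12% of all genes (0.682% higher, 0.435% lower). DESeq2 called 1 of the 61 pathway genes it gave an adjusted p at day 14, and 3.81% of all genes. At day 26, 0 of 54 passed in all libraries, with 28 at an unadjusted p under 0.05, where edgeR called 0% of all genes. DESeq2 called 20 of the 61 pathway genes it gave an adjusted p at day 26, 10 higher and 10 lower, and 19.8% of all genes. Without KPC replicate 3, edgeR called 33 of 56 at day 26, 16 higher and 17 lower, where it called 51.6% of all genes (25.7% and 25.9%).

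Of 11 tested genes known to rise with cyclic AMP, the second messenger of EP4, 5 rose at day 21, 0 fell and 6 did not pass, and the median log2 fold change was 0.63. Nr4a1, an orphan nuclear receptor gene, lay at 285, 401 and 340 CPM in controls and 656, 1044 and 1083 CPM in KPC (log2 1.43 ± 0.19, adjusted p 0.0014, and 0.0828 in a fit of all 20 libraries). Its relative Nr4a2 rose from 4.01 to 14.9 CPM (log2 1.89 ± 0.31, adjusted p 0.0027), and Fosb, an AP-1 subunit gene, rose from 292 to 963 CPM (log2 1.72 ± 0.19, adjusted p 4.4e-04). These genes also answer to serum, stress and cell dissociation. Controls differed between days too. Nr4a2 lay at 7.95 to 14.6 CPM in controls of day 14, which overlapped KPC of day 21 (11.8 to 18.9 CPM). Fosb lay at 165 to 199 CPM in controls of day 14, 278 to 315 CPM in those of day 21 and 351 to 784 CPM in those of day 26. At day 26 Nr4a1 was at 1635, 2231 and 976 CPM in KPC and 324 to 640 CPM in controls (log2 1.76 ± 0.33, adjusted p 0.0592), and without KPC replicate 3 it rose (log2 2.00 ± 0.25, adjusted p 3.5e-04). Nr4a2 did not pass with that replicate (adjusted p 0.141) and rose without it (log2 1.35 ± 0.38, adjusted p 0.0202). Fosb passed in neither fit (log2 0.58 and 0.56, adjusted p 0.229 and 0.213). Without that replicate 8 of the 11 rose and 1, Pde4a, fell, where 51.6% of all genes were called.

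Of 11 tested genes of arachidonate supply, 4 fell at day 21, 0 rose and 7 did not pass, and the median log2 fold change was -0.46. Fads1 and Fads2 encode the desaturases that make arachidonic acid from dietary linoleic acid. Fads1 lay at 168, 180 and 140 CPM in controls and 95.7, 107 and 96.2 CPM in KPC (log2 -0.72 ± 0.12, adjusted p 0.0023), and Fads2 at 42.5, 39.7 and 31.7 against 24.2, 13.4 and 16.4 CPM (log2 -1.08 ± 0.21, adjusted p 0.0077). Daglb, a diacylglycerol lipase gene whose exons overlap Rac1 on the other strand, fell by 0.49 on the log2 scale (SE 0.13, adjusted p 0.0279) and did not pass in the fits without 1 control (adjusted p 0.0567 to 0.113), without KPC replicate 2 (0.0735) or of all 20 libraries (0.275). Without KPC replicate 3, Fads2 (-1.46 ± 0.13, adjusted p 7.7e-05) and Daglb (-1.63 ± 0.15, adjusted p 8.7e-05) fell at day 26 too. Anxa1, the most abundant gene of this list and a protein first known as a phospholipase A2 inhibitor, lay at 686 to 1024 CPM in all libraries and was not called at any day.

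On the list of other receptor genes 0 of 6 rose and 1 fell at day 21. That gene, Ptgfrn, encodes not a prostaglandin receptor but a membrane partner of the prostaglandin F2α receptor, and is the most abundant of its list. It went from 729, 772 and 696 CPM in controls to 426, 292 and 404 CPM in KPC (log2 -0.98 ± 0.14, adjusted p 0.0012, and 0.0740 in a fit of all 20 libraries), while Ptgfr itself overlapped between the groups. At day 26 Ptgfrn lay at 684 to 800 CPM in controls while the KPC libraries held 207, 172 and 564 CPM, and it fell without KPC replicate 3 (log2 -1.98 ± 0.18, adjusted p 6.4e-05). In transport and breakdown 1 of 6 rose and 1 fell at day 21. Slco2a1, the prostaglandin uptake carrier gene, rose from 18.1 to 27.1 CPM (log2 0.57 ± 0.16, adjusted p 0.0425), and Ptgr1, a prostaglandin reductase gene, fell from 20.4 to 14.2 CPM (log2 -0.53 ± 0.15, adjusted p 0.0403). Neither passed in any of the fits that left out 1 control (adjusted p 0.0704 to 0.174 for Slco2a1 and 0.0949 to 0.139 for Ptgr1), in that without KPC replicate 2 (0.131 and 0.0799), with a replicate block (0.0713 and 0.0793) or in a fit of all 20 libraries (0.372 and 0.487). Ptgr1 also did not pass without KPC replicate 3 (0.0876) or with library size alone (0.0602). Zadh2, a prostaglandin reductase gene and the most abundant of this list, lay at 85.9 to 116 CPM in all libraries.

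Of the other synthase genes 0 of 4 passed at day 21, and the most abundant, Ptges3, which also serves as a co-chaperone, lay at 41.4, 47.4 and 36.6 CPM in controls and 48.8, 27.2 and 38.7 CPM in KPC. Among other phospholipases A2, 1 of 9 rose, Pla2g2f, another secreted form, from 0.0535 to 1.13 CPM (log2 4.19 ± 1.21, adjusted p 0.0425). It did not pass without any 1 control (adjusted p 0.0604 to 0.179), without KPC replicate 2 (0.151) or 3 (0.0670), with a replicate block (0.0889), with no filter (0.0775) or in a fit of all 20 libraries (0.134), and no count fell on it in KPC at day 26. The most abundant of that list, the lysosomal Pla2g15, was not called at day 21 (log2 -0.07 ± 0.13, adjusted p 0.783), and it fell at day 26 without KPC replicate 3 (log2 -1.72 ± 0.14, adjusted p 3.9e-05). Of the leukotriene and other eicosanoid enzymes 1 of 7 rose, Ggt5, which trims leukotriene C4, from 127, 104 and 135 CPM to 239, 345 and 256 CPM (log2 1.19 ± 0.15, adjusted p 5.5e-04). Dpep1, a dipeptidase gene for the next step and the most abundant of that list, was not called at day 21 (log2 0.27 ± 0.13, adjusted p 0.21). How far the effect of KPC at day 21 differs from that at day 14, tested in 1 fit of all 20 libraries, passed for 0 of 62 of these genes, with 13 at an unadjusted p under 0.05, and for 0.644% of all genes.

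**Figure D5:**
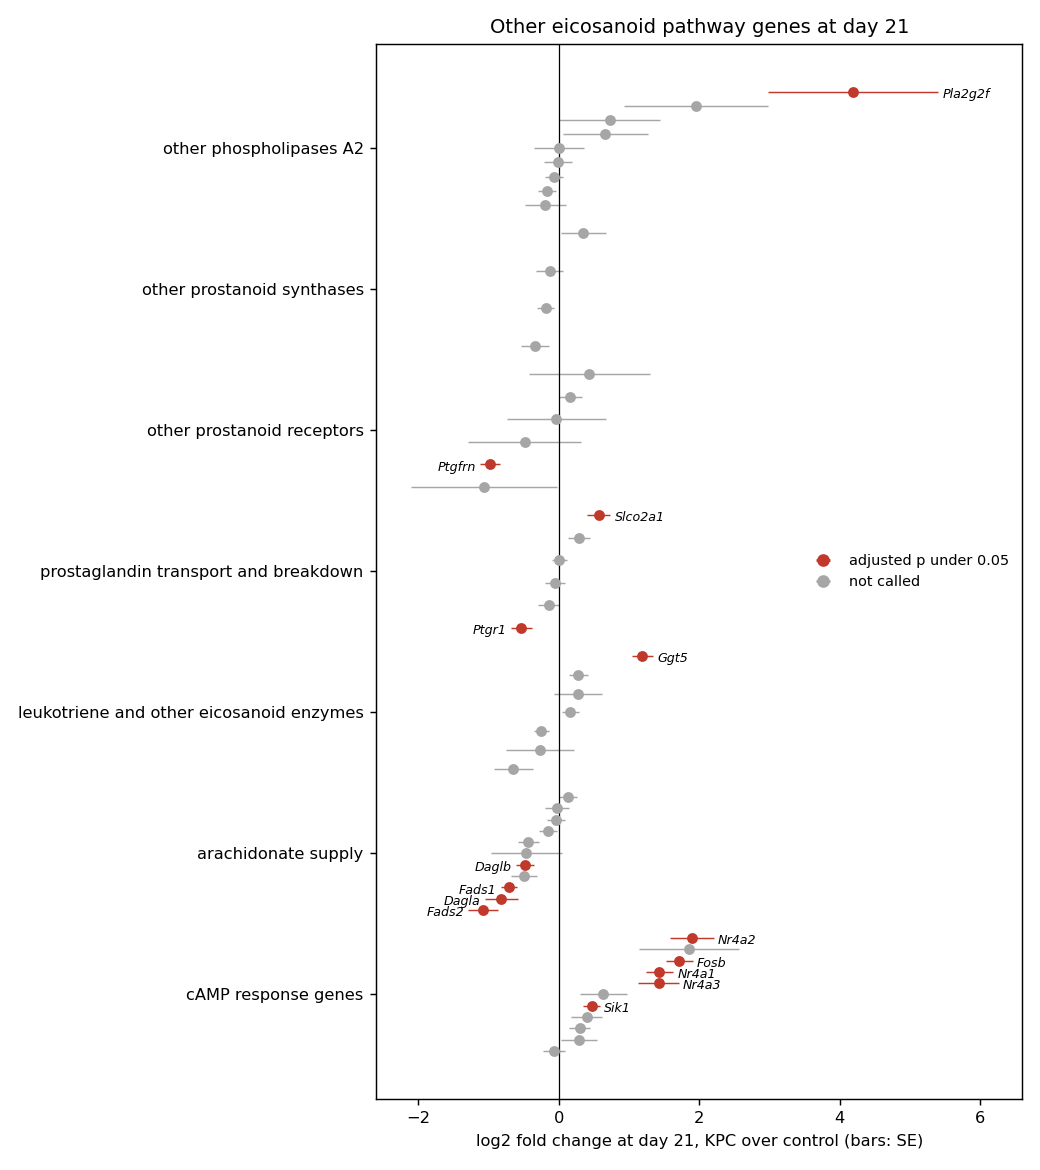
Log2 fold change of KPC over control at day 21, with standard errors as bars, for the 54 tested genes of the 7 pathway lists, with those past an adjusted p of 0.05 in red and named. All 5 named genes of the cyclic AMP list lie to the right of 0, and all 4 of arachidonate supply lie to the left.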

How the data were processed

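Messenger RNA of sorted FAPs was read as pairs of 59 bases, per the labels' protocols. What the authors deposited are whole-number counts, 1 per gene symbol and library, without normalization. Named without roles in the submitters' processing notes are build mm10, STAR, Bowtie, bcl2fastq 2.20, R 4.2.1 and DESeq2 1.36.0. How reads were counted, with which annotation and whether by strand, is not given in the sources used here.

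Columns were matched to samples through library codes. Each day was fitted alone in edgeR 4.0.16 (R 4.3.3) with TMM scaling, filterByExpr (minimum count 10, minimum total 15) and a robust, 2-sided quasi-likelihood test. Benjamini-Hochberg adjustment ran over all genes tested, and a gene under 0.05 is called. A standard error is |log2 fold change| over the root of F. Printed CPM use TMM factors over all 20 libraries. Positions and exon lengths come from GENCODE vM21 (mm10). Members and lists were chosen with earlier results of these data known. Besides members, the genes named are every called gene of a list at day 14, up to 3 called genes of a list by p at days 21 and 26, the gene of each list with the highest mean CPM, and for each member with an SD of log2 CPM (prior count 2) of at least 0.5 the 3 genes of nearest course. The tests were tried on simulated counts. Alternatives were other scalings, no filter, DESeq2 1.42.0, a fit of all 20 libraries, a replicate block and leaving out each library.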

Additional observations from a re-analysis of the deposited data

Results flagged for a closer look

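Ptgs2 in KPC replicate 4 of day 14, at 283 CPM, lay far above the other 3 KPC libraries of that day, which held 103 to 123 CPM. That library also differs from those 3 in the leading number of its code, and whether the number bears on Ptgs2 was not tested. Pla2g15 in KPC replicate 3 of day 14 was low at 44.3 CPM beside 47.1 to 47.4 CPM, and Ptgfrn in the same library was high at 572 CPM beside 470 to 485 CPM. That library has the lowest total of the series, at 12944751 counts, and the Pla2g15 difference is small. For Pla2g2f, control replicate 4 of day 26, at 0.0963 CPM from only 2 counts, was the one control of that day with any count. Of 50 groups of 4 libraries looked at, 4 had such a library, where chance gives about 1 in 20.

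For Ptgs2 every KPC library lay below every control at day 14 and above every control at day 21, and the log2 fold changes of these days differ by 3.20. For Ptges every KPC library lay above every control at day 14 and below every control at day 26, and the log2 fold change of day 26 minus that of day 14 is -1.33. Neither difference was tested, since both genes were chosen on these contrasts.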

How the results depend on the processing

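Over 12 to 14 alternatives a day, the log2 fold changes of Ptgs1, Ptgs2, Ptger4 and Pla2g2d at day 21 kept their sign, and 347 of 351 member values moved by less than 1 SD between replicates. The other 4 were at day 26, namely Pla2g4a, Ptges and Ptgfr without KPC replicate 3 and Ptgfr among libraries whose code begins with 227 (log2 -1.57). Leaving out KPC replicate 3 moved every member value of day 26 away from 0. Without KPC replicate 2, log2 fold changes of that day were nearer 0 for Ptgs1 (-0.80), Ptges (-0.60), Pla2g4a (-0.92) and Pla2g2d (3.48). Without KPC replicate 1 they were nearer 0 for Ptgis (-0.61), Ptger4 (1.28), Ptgfr (-0.01) and Hpgd (-0.05). Counts of called genes moved more. At day 14 the 149 genes became 278 with no filter, 558 with DESeq2, 2 in the fit of all 20 libraries, and 40 to 255 with 1 library left out (40 without control replicate 3, 62, 41, 92 and 255 without KPC replicates 1 to 4). At day 21 the 1643 became 436 in the fit of all 20 libraries and 717 to 2644 with 1 left out (717, 766 and 853 without control replicates 1 to 3, 2644 without KPC replicate 1), and with library size alone the split was 1058 higher and 613 lower, against 839 and 804, with 274 and 162 in the fit of all 20. At day 26 the 0 became 2795 with DESeq2, 4889 in the fit of all 20, 6287 among libraries with code number 227, and 0 to 6972 with 1 left out, all but that without KPC replicate 3 at 0. Of the other pathway genes, 0 to 1 were called at day 14 with 1 library left out and 1 with DESeq2. At day 21 the 14 became 5 in the fit of all 20 and 7 to 19 with 1 left out (7, 7 and 8 without control replicates 1 to 3, 9 without KPC replicate 2). At day 26 the 0 became 20 with DESeq2, 31 in the fit of all 20, 26 with code number 227, and 0 to 33 with 1 left out, all but that without KPC replicate 3 at 0. For the difference between days 21 and 14 the 0 became 7 in libraries of those days only and 0 to 1 with 1 left out. The causes were not tested.

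Replicate numbers are shared between groups. Deviations of same-numbered libraries had an r across genes from -0.10 to 0.13, and those of different-numbered libraries from -0.19 to 0.14. With so few libraries a group this cannot tell whether the numbers pair mice. With the replicate number as a block, 369 genes were called at day 14, 1545 at day 21 and 0 at day 26, and 1, 11 and 0 of the other pathway genes, with 1 for the difference between days.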

Other observations

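Ratios of transcripts within a library, which no scaling between libraries touches, add to the synthases. Per kilobase of exon, Ptges over Ptgis was 1.28, 1.33 and 0.97 in controls of day 14 and 1.73, 1.94, 2.24 and 2.03 in KPC, with no overlap, while the groups overlapped at days 21 and 26. Ptges over Hpgd overlapped at each day and reached 11.4 in KPC replicate 1 of day 26, the library with the least Hpgd.

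The prostacyclin receptor gene Ptgir, named after its values were seen, lay at group means of 39.4 to 55.3 CPM, while the receptor genes Ptger1, Ptger2, Ptger3 and Tbxa2r stayed under 2 CPM in every group mean. Ptgds, Hpgds and Tbxas1, which encode the prostaglandin D2 and thromboxane synthases, stayed under 1 CPM in every group mean.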
